A study of Mus musculus with 4 samples.

Results

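Fibroblast growth factor (FGF) signalling was followed through 10 genes in RNA from mouse kidney cells sorted by fluorescence: the ligands Fgf9 and Fgf20, the receptors Fgfr1, Fgfr2 and Fgfrl1, the feedback inhibitors Spry1, Spry2 and Dusp6, and the transcription factors Etv4 and Etv5. The genes were chosen by symbol with earlier results of these data known, and each matched 1 of the 52636 gene identifiers counted. All 10 passed the filter on low counts, which left 18172 genes for testing. Each of the 4 libraries was made from 3000 cells. The samples are labelled control (2 libraries) and Brg1-cKO (2 libraries), where cKO commonly stands for conditional knockout. Brg1, encoded by Smarca4, is the ATPase of SWI/SNF chromatin remodelling complexes. Strain, age, allele, Cre driver and sort gate are not stated in the sources used here, nor is it said that replicates are different animals. All p-values therefore reflect how these libraries vary, which may be technical.

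Most FGFs are secreted proteins that bind receptor tyrosine kinases together with heparan sulfate. Bound receptors signal through adaptor proteins, Ras and the MAP kinases to ETS transcription factors such as Etv4 and Etv5, and the same signal switches on its own brakes, the Sprouty proteins and the phosphatase Dusp6. In the developing kidney Fgf9 and Fgf20 are known for keeping nephron progenitors alive and undifferentiated, Fgf8 for the survival of the early nephron, and Spry1 for holding branching of the ureteric bud in check.

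Of the 10 genes, 3 had groups that did not overlap together with an unadjusted p under 0.05. Over all genes tested, 18.3% had such a p and 52% had groups that did not overlap. Fgf9 was higher in Brg1-cKO by 7.47-fold (ratio of mean levels), Fgfrl1, the receptor that lacks a kinase domain, was higher by 1.65-fold, and Spry2 was at 0.294 of its control level. In the quasi-likelihood test of edgeR 0 of the 10 passed the adjusted threshold of 0.05, as did 0% of all 18172 genes. The other genes had no common direction. For Fgfr1, Fgfr2, Spry1, Dusp6, Etv4 and Etv5 1 Brg1-cKO library lay above both controls and the other below them.

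The sequences before the start of transcription of these 3 genes are shown because their levels set both groups apart at an unadjusted p under 0.05. They come from RefSeq on GRCm38.p6, 250 bases each, read 5′ to 3′ on the strand of the gene and ending at the base before the start. Fgf9 is at chr14:58072436-58072685 on the plus strand, Fgfrl1 at chr5:108693979-108694228 on the plus strand and Spry2 at chr14:105896820-105897069 on the minus strand. For Fgf9 and Fgfrl1 the RefSeq start used here lies inside the longer GENCODE gene span, so these windows precede 1 annotated start and not the outermost one. Capitals mark the only match to any of 4 motifs searched on both strands.
Fgf9: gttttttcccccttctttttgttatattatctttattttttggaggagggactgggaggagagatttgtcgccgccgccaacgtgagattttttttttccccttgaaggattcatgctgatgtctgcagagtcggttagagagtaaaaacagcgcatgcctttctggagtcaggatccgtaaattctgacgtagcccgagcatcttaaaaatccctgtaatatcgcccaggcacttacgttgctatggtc
Fgfrl1: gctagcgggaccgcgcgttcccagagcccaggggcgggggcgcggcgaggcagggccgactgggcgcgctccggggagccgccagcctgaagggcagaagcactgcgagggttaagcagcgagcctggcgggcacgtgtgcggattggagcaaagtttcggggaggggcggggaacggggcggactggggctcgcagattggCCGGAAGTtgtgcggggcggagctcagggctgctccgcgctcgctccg
Spry2: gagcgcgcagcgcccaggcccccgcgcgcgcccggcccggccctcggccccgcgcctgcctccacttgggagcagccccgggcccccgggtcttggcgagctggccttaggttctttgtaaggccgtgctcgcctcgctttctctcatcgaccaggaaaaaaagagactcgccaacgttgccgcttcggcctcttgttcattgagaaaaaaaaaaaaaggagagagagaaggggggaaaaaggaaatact

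The motifs were CCGGAAGT for ETS factors, TCANGTTTC for Six2 and its relatives, ATCAAAG for TCF/LEF and TGANTCA for AP-1, and they were searched in windows from 250 bases before to 50 after the start. RefSeq windows were found for 7 of the 10 genes, all but Fgf20, Fgfr1 and Etv4, with 2 windows for Etv5. The single match lay in Fgfrl1, where CCGGAAGT begins 48 bases before the start. Of 32851 windows of all genes, 3.89% held the ETS motif, 1.08% the Six2 motif, 3.73% the TCF/LEF motif and 7.81% the AP-1 motif. A match is a string of letters and no measured binding. The stretch of Fgfrl1 was 73.6% G and C, that of Spry2 62.4% and that of Fgf9 44.8%.

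Gene counts per library ranged from 10922272 to 14645665 in Brg1-cKO and from 35411905 to 37999342 in control. Of the uniquely aligned reads, 15.9% ± 0.771 (SD, n = 2) lay outside counted genes in control and 53.4% ± 5.47 in Brg1-cKO, and their part in the differences given here was not tested. Levels are given as CPM, counts scaled to library size. Smarca4 stood at 898 and 937 CPM for control and 760 and 691 CPM for Brg1-cKO (log2 fold change -0.34, SE 0.09, edgeR adjusted p = 0.167). Counts of the whole gene check the labels only in part. Xist lay at 836 to 1205 CPM in Brg1-cKO and at 217 to 244 CPM in control, and the Y-linked Ddx3y at 1.05 to 3.27 and 76.0 to 78.8 CPM. Both control libraries thus held transcripts of female and of male cells, and pooling of animals is not stated in the sources used here. The sex make-up differed with the group, so sex and genotype cannot be told apart. The Brg1-cKO libraries differed from each other far more than the controls did (biological coefficient of variation 1.15 and 0.174).

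Fgf9 was the ligand with the largest difference among the 10 genes. It was at 7.38 and 6.79 CPM in control and at 59.7 and 46.2 CPM in Brg1-cKO. The lowest Brg1-cKO value was thus several times the highest control value, and the groups did not overlap. The log2 fold change was 2.90 (SE 0.37), and edgeR put the unadjusted p at 0.00128 and the adjusted p at 0.166. DESeq2 gave an adjusted p of 2.24e-07, the likelihood ratio test 9.2e-05 and limma-voom 0.0667, on the same counts, where these tools called 5.43%, 13.6% and 1.8% of all genes. Without control replicate 1 or control replicate 2 the log2 fold change was 2.93 or 2.81, with an adjusted p of 1 in either case. Fgf9 (ENSMUSG00000021974) spans chromosome 14 from 58070547 to 58112720 (plus strand, GENCODE on mm10), and no exon of another annotated gene overlaps its exons.

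Fgf20, the ligand of the same subfamily, was scarce. In control it had 32 and 63 counts, or 0.894 and 1.63 CPM, and 35 and 44 counts in Brg1-cKO, or 2.45 and 4.11 CPM. Both Brg1-cKO values lay above both controls, and within each group the higher value was well above the lower. The log2 fold change of 1.37 had an SE of 1.19 and an adjusted p of 0.655 in edgeR's test, so the error was nearly as large as the difference. Fgf20 (chromosome 8, 40279166 to 40308331, minus strand) shares 202 exon bases with Micu3 on the opposite strand.

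Per kilobase of exon the make-up of the FGF family differed between the groups. Fgf9 held 4.36% and 3.95% of the summed reads per kilobase of all 22 FGF family genes in control and 37.9% and 32.5% in Brg1-cKO. The 22 include Fgf11, Fgf12, Fgf13 and Fgf14, which stay inside the cell and are not ligands of the FGF receptors. Fgf8 held 50.2% and 48.7% in control and 16.5% and 36.6% in Brg1-cKO. The sum itself was 36.4 and 37.0 RPKM (reads per kilobase, scaled to library size) in control and 33.9 and 30.6 RPKM in Brg1-cKO. In the order of mean RPKM Fgf9 was number 6 of the 22 genes in control, where Fgf11 was number 3. In Brg1-cKO Fgf9 was number 1, with Fgf8 second there. The values of Fgf9 (12.8 and 9.95 RPKM) and Fgf8 (5.59 and 11.2 RPKM) overlapped in Brg1-cKO, so the order of these neighbours is within their spread. The length used is the union of annotated exons, which bears on levels set side by side between genes.

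**Figure D1:**
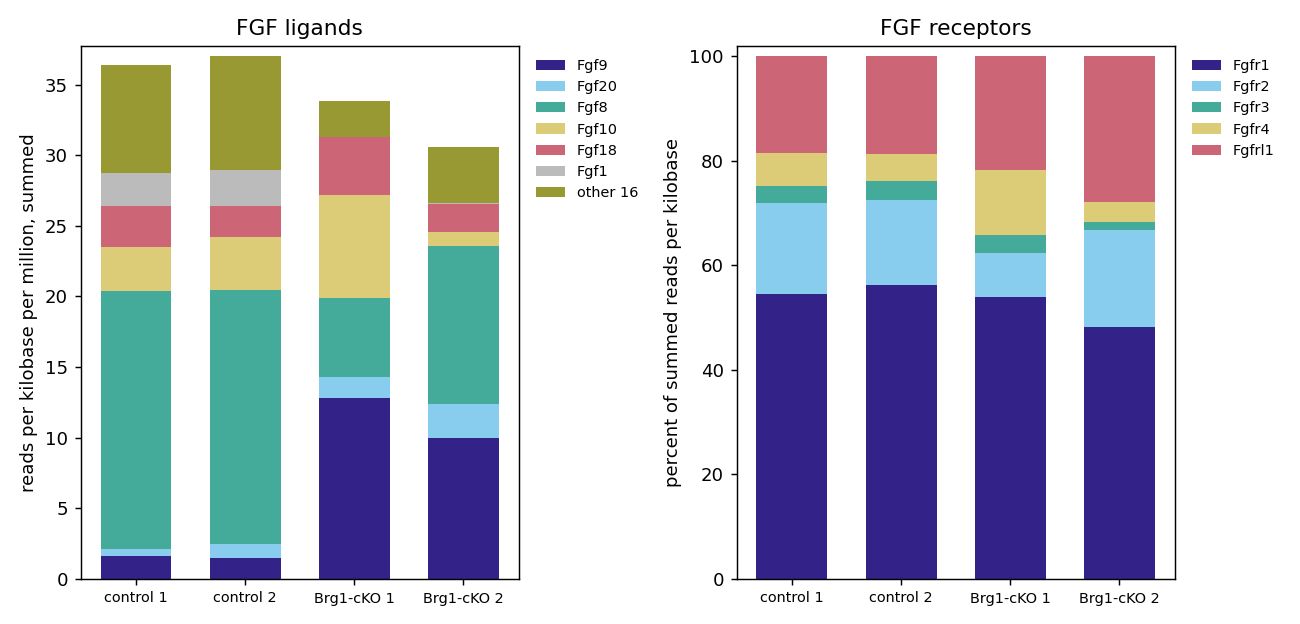
Left (titled FGF ligands), RPKM summed over the 22 FGF family genes in each of the 4 libraries, coloured by gene. Right, the percent of the summed reads per kilobase of Fgfr1, Fgfr2, Fgfr3, Fgfr4 and Fgfrl1 held by each. The Fgf9 block is 37.9% and 32.5% of the left bar in the Brg1-cKO libraries and 4.36% and 3.95% in the controls. Fgfr1 is the largest receptor block in every library.

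Of 20 other FGF family genes listed, 13 were tested and 0 passed the adjusted threshold. Among the 13, 5 had 0 counts in both Brg1-cKO libraries and passed the filter on low counts through the deeper control libraries alone, so their direction was fixed by the filter and no tally of directions is given for the list. Fgf1, a ligand of all FGF receptors, was at 12.8 and 13.8 CPM in control and at 0 and 0.374 CPM in Brg1-cKO (log2 fold change -6.17, SE 2.05, edgeR adjusted p = 0.244). Fgf8 was at 24.7 and 24.3 CPM in control and at 7.55 and 15.1 CPM in Brg1-cKO (-1.11, SE 0.58, edgeR adjusted p = 0.443). Both Brg1-cKO values of Fgf1 and of Fgf8 lay below both controls, as for 34.5% of all genes tested. With 0 and 4 counts in Brg1-cKO, Fgf1 too passed the filter through control alone, so its direction was fixed by the filter.

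Fgf10, a ligand of the Fgfr2 isoform of epithelia, was split between the Brg1-cKO libraries, at 33.5 and 4.39 CPM against 14.2 and 17.3 CPM in control. Fgf7, a stromal ligand of the same receptor isoform, was at 0.615 and 0.778 CPM in control and had 0 counts in both Brg1-cKO libraries, where 3 counts over the group would put its log2 fold change at -2.54 or below. Fgf5, Fgf12, Fgf17 and Fgf22, named after their values were seen, also had 0 counts in both, with bounds between -2.31 and -2.61. Of the 22 FGF family genes, 20 and 21 had a count in control and 9 and 12 in the shallower Brg1-cKO libraries.

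Fgfr1, which with Fgfr2 carries FGF signals in nephron progenitors, was at 658 and 669 CPM in control and at 918 and 633 CPM in Brg1-cKO. The Brg1-cKO libraries lay on either side of the controls, and the fitted log2 difference of 0.22 (SE 0.21, edgeR adjusted p = 0.673) was near its error. Fgfr2 was at 219 and 204 CPM in control and at 150 and 256 CPM in Brg1-cKO, on either side of the controls in the opposite order (-0.06, SE 0.30, edgeR adjusted p = 0.952). Gene counts do not separate the epithelial and mesenchymal isoforms of these receptors.

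Fgfrl1 binds FGFs but has no kinase domain, and it is known to be needed for the first nephrons to form. It was at 63.0 and 62.4 CPM in control and at 104 and 103 CPM in Brg1-cKO. Within each group the libraries were nearly equal, and the groups were apart. The log2 fold change was 0.73 (SE 0.18), and edgeR put the unadjusted p at 0.0158 and the adjusted p at 0.166. It was not called in any setting fitted to all 4 libraries, where the adjusted p ranged from 0.0695 to 0.766. Fgfrl1 (ENSMUSG00000008090) spans 108692382 to 108706924 of chromosome 5 (plus strand).

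Per kilobase Fgfr1 was the most abundant receptor in every library, with 54.6% and 56.2% of the summed reads per kilobase of the 5 receptor genes in control and 54.0% and 48.1% in Brg1-cKO. Fgfrl1 held 18.5% and 18.6% in control and 21.8% and 27.8% in Brg1-cKO, and Fgfr2 17.3% and 16.3% in control and 8.45% and 18.6% in Brg1-cKO. With the length of the longest transcript Fgfr2 instead of Fgfrl1 came second in control (21.6% and 12.2%). The gene model of Fgfr2 (chromosome 7, 130162451 to 133123350) runs on into exons of Ctbp2, with 314 shared bases, which bears on its length. Fgfr1 (chromosome 8, 25513654 to 25575718) shares 164 exon bases with an antisense gene.

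Fgfr4 was at 27.4 and 22.4 CPM in control and at 75.5 and 18.6 CPM in Brg1-cKO, and Fgfr3 at 28.5 and 31.5 CPM in control and at 41.9 and 14.7 CPM in Brg1-cKO. Both were highest in Brg1-cKO replicate 1 and lowest in replicate 2. Of the other receptors and co-receptors 8 were tested, some of them admitted by the filter through control alone, and 0 passed the adjusted threshold. Kl, which encodes Klotho, the co-receptor of the hormone Fgf23, was at 1.37 and 1.09 CPM in control and at 94.3 and 23.5 CPM in Brg1-cKO (log2 fold change 5.58, SE 0.93, unadjusted p = 0.00425, edgeR adjusted p = 0.166). Flrt2, a membrane protein with leucine-rich repeats, was at 104 and 106 CPM in control and at 52.0 and 70.3 CPM in Brg1-cKO (-0.78, SE 0.24, unadjusted p = 0.0309, edgeR adjusted p = 0.211).

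**Figure D2:**
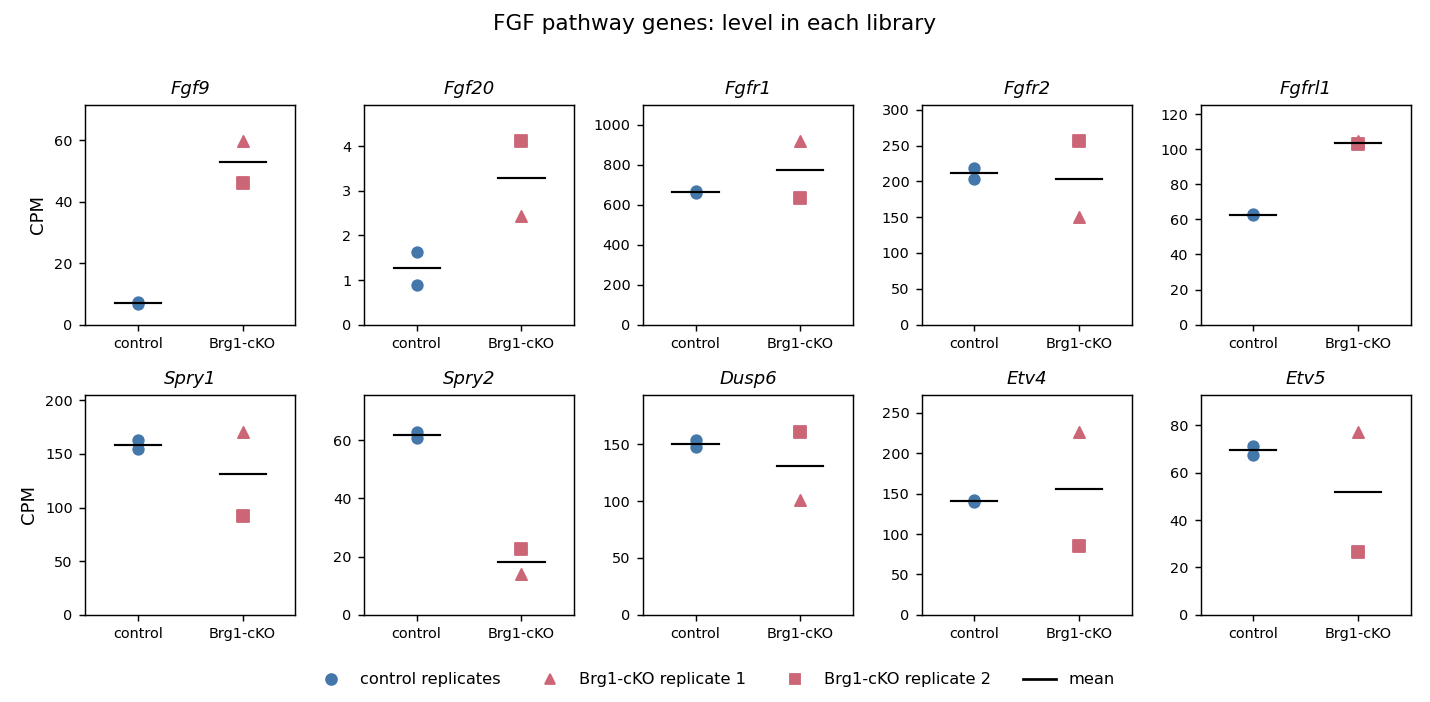
Level of each of the 10 FGF pathway genes in CPM (linear axis from 0, scaled per gene) in the 2 control libraries (circles), Brg1-cKO replicate 1 (triangle) and replicate 2 (square), with the group mean as a line. Fgf9, Fgf20 and Fgfrl1 lie above and Spry2 below both controls in both Brg1-cKO libraries, while the other genes straddle them.

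Spry2, a cytoplasmic inhibitor of receptor tyrosine kinase signalling, was the gene with the largest negative difference of the 10. It was at 63.1 and 60.9 CPM in control and at 13.9 and 22.5 CPM in Brg1-cKO. No Brg1-cKO value came near the controls. The log2 fold change was -1.77 (SE 0.37), and edgeR put the unadjusted p at 0.00902 and the adjusted p at 0.166. DESeq2 gave an adjusted p of 0.0114 and the likelihood ratio test 0.00694, while limma-voom gave 0.095. These tools called 5.43%, 13.6% and 1.8% of all genes. Of the 11 other settings fitted to all 4 libraries, 2 called Spry2, and the adjusted p ranged from 0.00694 to 0.412. Without control replicate 1 or control replicate 2 the log2 fold change was -1.78 or -1.82, with an adjusted p of 1 in either case. Spry2 (ENSMUSG00000022114) spans 105891947 to 105896819 of chromosome 14 (minus strand), the same chromosome as Fgf9 but far from it.

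Spry1, the paralog of Spry2, was at 163 and 155 CPM in control and at 171 and 91.9 CPM in Brg1-cKO, so replicate 1 was close to the controls and replicate 2 was lower. The fitted log2 difference was -0.27 (SE 0.35, edgeR adjusted p = 0.775). Spry1 (chromosome 3, 37639947 to 37644598, plus strand) shares 710 exon bases with an antisense gene. How reads in these bases were counted depends on the counting tool and its strand use, which are not given.

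Dusp6, the phosphatase that inactivates ERK kinases, was at 147 and 154 CPM in control and at 101 and 161 CPM in Brg1-cKO (log2 fold change -0.20, SE 0.28, edgeR adjusted p = 0.792). Only Brg1-cKO replicate 1 was away from the controls. Dusp6 spans 99263231 to 99267489 of chromosome 10 (plus strand).

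Etv4 and Etv5, ETS factors of the PEA3 subfamily that FGF and Ret signals induce, were split more widely than any other of the 10. Etv4 was at 140 and 143 CPM in control and at 227 and 84.9 CPM in Brg1-cKO (log2 fold change 0.14, SE 0.52, edgeR adjusted p = 0.928). Etv5 was at 71.4 and 67.5 CPM in control and at 77.4 and 26.7 CPM in Brg1-cKO (-0.41, SE 0.58, edgeR adjusted p = 0.793). In both genes replicate 1 was above and replicate 2 below the controls. With replicate 1 as the only Brg1-cKO library Etv4 had a log2 fold change of 0.66 (edgeR adjusted p = 5.43e-07) and with replicate 2 of -0.76 (adjusted p = 4.22e-06), so the sign turned with the library. In these fits the lone library took its spread from the controls, and 60.6% and 55.5% of all genes were called. Etv4 lies on chromosome 11 from 101769742 to 101785371 and Etv5 on chromosome 16 from 22381309 to 22439719, both on the minus strand.

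An unadjusted p under 0.05 was reached by 3 of 10, beside 18.3% of all genes tested (5.44% as higher and 12.9% as lower). The groups did not overlap for 3 genes as higher and 1 as lower, where 17.5% and 34.5% of all genes did so. The Brg1-cKO libraries lay on either side of both controls for 6 of 10, beside 36.8% of all genes. Among genes at 10 CPM or more in the higher group, which leaves out Fgf20, the groups did not overlap for 23.7% as higher and 26.2% as lower, the Brg1-cKO libraries lay on either side for 39.4%, and 12.9% had an unadjusted p under 0.05. The median log2 fold change was 0.04, with -0.06 over all genes. The share of all genes past the adjusted threshold was 5.43% with DESeq2 (2 of the 10, Fgf9 and Spry2), 13.6% with the likelihood ratio test (the same 2), 1.8% with limma-voom (0), 0.737% with limma-voom fitted with separate group variances (Fgf9) and 0.858% with a replicate block (Fgf9). Without control replicate 1 or 2 it was 0.0818% or 0.0817%, and 0 of the 10 passed.

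Levels per kilobase in control ran from Fgfr1 (67.2 RPKM ± 0.756, SD, n = 2) through Spry1 (54.6 ± 1.95), Dusp6 (48.1 ± 1.42), Etv4 (45.6 ± 0.590), Spry2 (29.7 ± 0.733), Fgfrl1 (22.5 ± 0.134), Fgfr2 (20.4 ± 1.03), Etv5 (16.9 ± 0.683) and Fgf9 (1.52 ± 0.0889) to Fgf20 (0.753 ± 0.312). Neighbours in this order did not overlap between the control libraries. Spry2 was number 5 in control and number 9 in Brg1-cKO (8.73 RPKM ± 2.92), where Fgf9 was number 8 (11.4 ± 2.04). In Brg1-cKO neighbours overlapped all along the order except at Fgfrl1 (37.3 ± 0.364) against Fgfr2 (19.7 ± 7.24) and at Spry2 against Fgf20 (1.95 ± 0.701).

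Brg1-cKO replicate 1 was above replicate 2 for 6 of the 10 genes, beside 43.2% of all genes. On the scale of log2(CPM + 0.5), replicate 1 exceeded replicate 2 by 1.52 for Etv5, 1.41 for Etv4, 0.89 for Spry1 and 0.54 for Fgfr1. It was below replicate 2 for Fgfr2 (-0.77), Spry2 (-0.68), Dusp6 (-0.68) and Fgf20 (-0.65). The median absolute difference of the 10 was 0.68, beside 0.83 over all genes, and between the controls it was 0.07 beside 0.16. Six2, a homeodomain factor needed to hold nephron progenitors in that state, differed by 0.89 in the same sense as Etv4, Etv5 and Spry1, and Cited1, a marker of uncommitted progenitors, by 2.75. Six2 was at 242 and 237 CPM in control and at 234 and 126 CPM in Brg1-cKO. Cited1 was at 19.9 and 17.2 CPM in control and at 43.0 and 5.98 CPM in Brg1-cKO. Among feedback genes outside the 10, Spry4 (50.1 and 54.4 CPM for control, 87.6 and 29.4 CPM for Brg1-cKO) was split like Etv4. Eya1, the partner of Six2, was higher in replicate 2 (185 and 166 CPM for control, 144 and 204 CPM for Brg1-cKO). Of the 11 progenitor markers listed 6 were higher in replicate 1, with a median difference of 0.02, and Tmem100 (-2.76) and Osr1 (-0.90), named after their values were seen, lay furthest the other way.

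**Figure D3:**
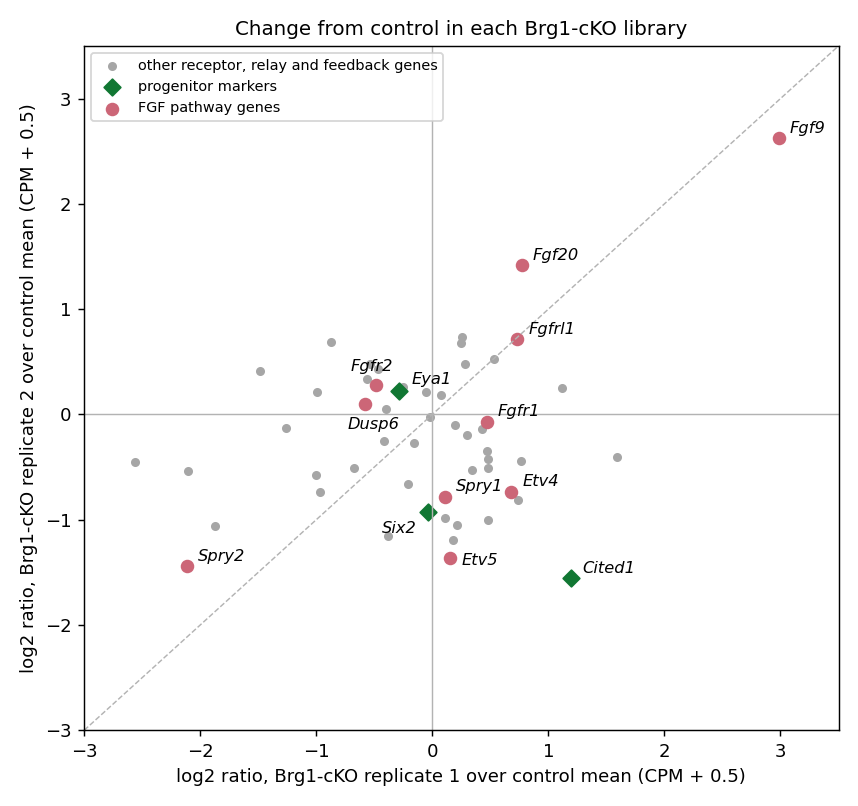
Log2 ratio to the control mean, on CPM + 0.5, in Brg1-cKO replicate 1 (horizontal) and replicate 2 (vertical), for the 10 FGF pathway genes (red), 3 progenitor markers (green diamonds) and 42 other receptor, relay and feedback genes at 10 CPM or more in the higher group (grey, with 1 gene, Kl, outside the axes). Points on the dashed line have the same ratio in both libraries, as Fgfrl1 does, while Etv4, Etv5 and Cited1 lie below it.

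Levels relative to Six2 within each library put the genes on the scale of a progenitor gene. Spry1 stood at 0.673 and 0.652 of the Six2 CPM in control and at 0.731 and 0.729 in Brg1-cKO. Etv5 stood at 0.295 and 0.284 in control and at 0.331 and 0.212 in Brg1-cKO. The Brg1-cKO libraries were further apart on this scale than in CPM for Fgfr2, at 0.903 and 0.858 in control and 0.642 and 2.03 in Brg1-cKO. The same held for Dusp6, at 0.610 and 0.648 in control and 0.431 and 1.28 in Brg1-cKO. Fgf9 stood at 0.0305 and 0.0286 in control and at 0.255 and 0.367 in Brg1-cKO, and Spry2 at 0.261 and 0.257 against 0.0594 and 0.179. The groups were apart for Fgf9 and Spry2 on this scale too, and they did when the sum of 11 progenitor markers was the reference. For Fgfr1, Spry1 and Etv4 the groups were apart relative to Six2 alone, as higher, and overlapped or were reversed relative to the 11 markers.

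Markers of other cell types also differed between the groups. The summed level of 8 podocyte markers was 519.6 to 522.8 CPM in control and 2395 to 2690 CPM in Brg1-cKO. All 8 of 8 markers were higher in both Brg1-cKO libraries, beside 17.5% of all genes tested. Nphs1, the podocyte slit diaphragm protein nephrin, was at 21.8 and 22.1 CPM in control and at 152 and 198 CPM in Brg1-cKO. Fgf9 relative to this sum was 0.0142 and 0.0130 in control and 0.0222 and 0.0193 in Brg1-cKO. Relative to it Fgfrl1 was lower in Brg1-cKO, at 0.0388 and 0.0430 against 0.121 and 0.119. The summed level of 7 early nephron markers was 1245 to 1251 CPM in control and 2099 to 2234 CPM in Brg1-cKO. Of these, 6 of 7 were higher (the other being Fgf8), beside the same 17.5% of all genes. Relative to this early nephron sum Fgf9 was 0.00590 and 0.00546 in control and 0.0267 and 0.0220 in Brg1-cKO. Fgfrl1 was 0.0503 and 0.0502 in control and 0.0468 and 0.0491 in Brg1-cKO. The part of these cells in the levels of Fgf9 and Fgfrl1 was not tested, and in sorted bulk samples fewer cells of a type and less RNA per cell cannot be told apart.

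Markers of the ureteric bud, where Spry2, Etv4 and Etv5 are also known to act, were lower in sum, though not each of them. The sum of 9 was 284.9 to 287.9 CPM in control and 95.8 to 174.8 CPM in Brg1-cKO. Calb1, Wnt9b and Wnt7b had 0 counts in both Brg1-cKO libraries. Like Ret, they passed the filter on low counts through control alone, so no tally of directions is given. Hoxb7 was at 23.5 and 29.4 CPM in control and at 98.2 and 27.0 CPM in Brg1-cKO. Gata3 lay on either side of the controls (28.7 and 31.5 CPM for control, 35.1 and 18.1 CPM for Brg1-cKO). Ret, through which Gdnf drives branching, was at 20.96 and 22.2 CPM in control and at 0 and 0.187 CPM in Brg1-cKO. The sum of 8 stromal markers was 2812 to 2852 CPM in control and 1236 to 1383 CPM in Brg1-cKO, with 8 of 8 lower, among them Foxd1 (180 and 171 CPM for control, 91.4 and 137 CPM for Brg1-cKO). Endothelial markers (7 of 7 lower, sums 581.5 to 587.8 and 172.3 to 282.2 CPM) were lower too. Both Brg1-cKO values lay below both controls for 34.5% of all genes tested, the share to set beside these stromal and endothelial tallies. Pecam1 was at 82.4 and 92.5 CPM for control and 36.9 and 20.4 CPM for Brg1-cKO. Immune markers were lower in sum (130.2 to 132 and 51.6 to 56.5 CPM), with Ptprc at 15.7 and 11.5 CPM and 3.77 and 2.99 CPM. Among them C1qa had 0 counts in both Brg1-cKO libraries and passed the filter through control alone, so no tally is given. Adgre1 lay on either side of the controls (6.37 and 9.21 CPM for control, 0 and 29.9 CPM for Brg1-cKO). The part of these cells in the level of Spry2 and of the ligands Fgf1, Fgf7 and Fgf8 was not tested.

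In the relay from receptor to nucleus, of 22 adaptors and Ras-MAPK genes tested, 10 had a positive and 12 a negative log2 fold change, with a median of -0.02. An unadjusted p under 0.05 was reached by 1 of them, Cbl, a ubiquitin ligase that marks receptors for breakdown, and 0 passed the adjusted threshold. Over all genes tested 18.3% had such a p. Cbl was at 202 and 210 CPM in control and at 129 and 144 CPM in Brg1-cKO (log2 fold change -0.59, SE 0.14, unadjusted p = 0.0139, edgeR adjusted p = 0.166).

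Among the other feedback genes and ETS targets, 17 of 18 were matched and tested, of which 8 had a positive and 9 a negative log2 fold change (median -0.16), and 0 passed the adjusted threshold. Spred1, a Sprouty-related inhibitor of Raf activation, was the only 1 of the 17 with an unadjusted p under 0.05, beside 18.3% of all genes. It was at 186 and 187 CPM in control and at 50.7 and 89.4 CPM in Brg1-cKO, with no overlap of the groups (-1.41, SE 0.33, unadjusted p = 0.0137, edgeR adjusted p = 0.166). Il17rd, a membrane antagonist of FGF receptors, was at 112 and 116 CPM in control and at 248 and 136 CPM in Brg1-cKO (0.75, SE 0.34, edgeR adjusted p = 0.378). The groups did not overlap for 3 of the 17 as higher and 6 as lower, beside 17.5% and 34.5% of all genes.

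Heparan sulfate is the co-factor that FGFs need to bind their receptors. Of 19 genes for its synthesis, editing and core proteins, 10 had a positive and 9 a negative log2 fold change (median 0.04), and 0 passed the adjusted threshold. Hs3st3b1, a 3-O-sulfotransferase, was at 62.0 and 57.0 CPM in control and at 140.5 and 137 CPM in Brg1-cKO (1.22, SE 0.18, unadjusted p = 0.00219, edgeR adjusted p = 0.166). Hs6st2, a 6-O-sulfotransferase, was at 56.9 and 54.5 CPM in control and at 28.0 and 29.3 CPM in Brg1-cKO (-0.96, SE 0.26, unadjusted p = 0.0210, edgeR adjusted p = 0.172). These were the only 2 of the 19 with an unadjusted p under 0.05, beside 18.3% of all genes.

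Likeness of pattern was measured as the Euclidean distance between log2(CPM + 0.5) profiles over the 4 libraries, each centred on its control mean, among protein-coding genes at a mean of 10 CPM or more. Nearest to Fgf9 were Dennd1c (0.213) and Sema3e (0.242), nearest to Fgfrl1 Atp1b1 (0.0247) and Tanc1 (0.047), and nearest to Spry2 Dact3 (0.0765) and Eif5a2 (0.0905). Nearest to Etv4 was Nsrp1, to Etv5 Heatr6 and Pdlim7, to Spry1 Cxxc1 and Samd8, to Dusp6 Gnpat and Cpm, to Fgfr1 Cpsf1 and Ctdsp2, and to Fgfr2 Qser1 and Ktn1. Within the 10, Fgfr2 and Dusp6 were the closest pair (0.231), followed by Spry1 with Etv4 and with Etv5 (0.58 each). All these values share 4 libraries and describe them only.

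**Figure D4:**
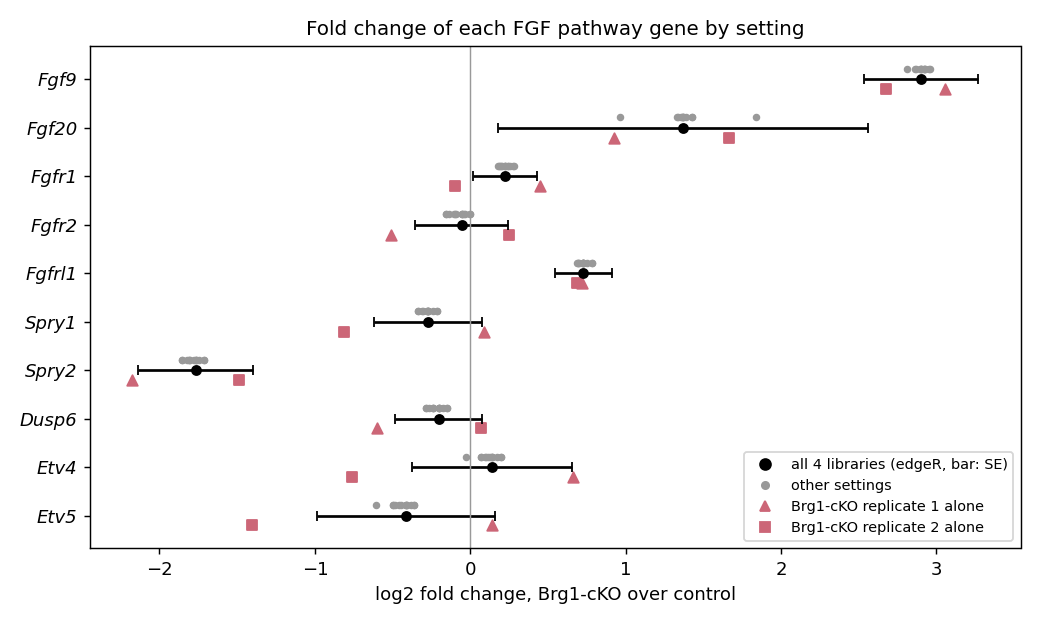
Log2 fold change of Brg1-cKO over control for each of the 10 genes: edgeR on all 4 libraries with its SE (black), other settings (grey), and fits with a single Brg1-cKO library (red triangle, replicate 1, red square, replicate 2). The 2 red marks lie on the same side of 0 for Fgf9, Fgf20, Fgfrl1 and Spry2 and on opposite sides for the other 6 genes.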

How the data were processed

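Per the labels' protocols, mRNA was purified and libraries were strand-specific and randomly primed, with single-end reads of 75 bp. The deposited values are whole-number counts per Ensembl gene and library, and the authors' notes name mm10, TopHat and DESeq2 without versions. The counting tool, its strand use and the annotation are not given in the sources used here. Reads given to no gene (31.8% to 72.1% of all reads) stayed out of library sizes and tests. Symbols were found for 52403 identifiers in GENCODE release M21 (on mm10).

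The comparison was fitted over all genes with edgeR 4.0.16 in R 4.3.3 (TMM, filterByExpr with a minimum count of 10, robust quasi-likelihood F test, group as only term), with Benjamini-Hochberg adjustment at 0.05. SE is the log2 fold change over the root of F. CPM uses TMM-scaled libraries, and RPKM divides it by the union of exons. The limit set by a count of 0 is 3 counts (0.0778 to 0.280 CPM by library) and covers counting error only, since reads carry no molecular identifiers. An exact permutation test of 2 against 2 libraries cannot go below 0.333. The functions were tested on simulated counts with the spread of the controls in both groups. The simulation thus does not show how the tests behave at the wider spread of the Brg1-cKO libraries.

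Alternatives were DESeq2 1.42.0, limma-voom (limma 3.58.1, with 1 or a group-wise variance), the likelihood ratio test, other scalings, filters and dispersions, a replicate block and each library left out. The group-wise variance and the podocyte and early nephron references were added after seeing the data. The genes and lists were chosen with earlier results of these data known. Named are the 10 genes, list members at 10 CPM or more without overlap at an unadjusted p under 0.05 (up to 3 per direction), fixed ligands, receptors, feedback genes and markers, and the 2 nearest profiles, of which 1 is not reported here.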

Additional observations from a re-analysis of the deposited data

Results flagged for a closer look

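Reads that aligned uniquely but fell outside counted genes enter no comparison of the report, and they were far above the control level in both Brg1-cKO libraries, at 49.5% of uniquely aligned reads in replicate 1 and 57.2% in replicate 2, against 16.4% and 15.4% in control. Their position relative to the FGF genes was not analysed here.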

How the results depend on the processing

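The threshold was passed by 0 genes in edgeR's quasi-likelihood test, in which 3328 had an unadjusted p under 0.05. With DESeq2 987 genes passed, 2 of them among the 10 (Fgf9 and Spry2), with the likelihood ratio test 2471 and 2 (the same pair), with limma-voom 327 and 0, and with a variance per group 134 and 1 (Fgf9). With the replicate block 156 genes and 1 of the 10 (Fgf9, adjusted p = 0.0352) passed. The replicate numbers are not said to pair libraries, and the differences of same-numbered libraries correlated at -0.02 across genes. With each library left out in turn, 16 to 13262 genes and 0 to 8 of the 10 passed, and 1 to 8 of the 10 had an unadjusted p under 0.05, beside 3 with all libraries. More genes were lower than higher at that p with all libraries (2340 and 988). Of the genes tested, 1527 had 0 counts in both Brg1-cKO libraries, so their direction was fixed by the filter. The balance turned with DESeq2 (1191 and 1549), with a minimum of 10 CPM (595 and 827) and with the block (526 and 611). It turned too in the fits with a lone control. With a library left out, far more genes passed the threshold with a lone Brg1-cKO library than with a lone control.

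Log2 fold changes turned sign with the Brg1-cKO library left out: without replicate 1 and without replicate 2 they were -0.10 and 0.45 for Fgfr1, 0.25 and -0.51 for Fgfr2, -0.82 and 0.088 for Spry1, 0.070 and -0.60 for Dusp6, -0.76 and 0.66 for Etv4 and -1.41 and 0.14 for Etv5. With the replicate block Etv4 was at -0.025, and the cause was not tested. Fgf9 (2.68 to 3.05), Fgfrl1 (0.69 to 0.78) and Spry2 (-2.17 to -1.49) kept their sign in all 15 settings and Fgf20 (0.93 to 1.84) in the 14 that tested it. The part of depth in the errors of Fgf20 and the scarce ligands was not tested.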
